A study of Rattus norvegicus with 21 samples.

Results

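Grin1 (ENSRNOG00000011726), Grin2a (ENSRNOG00000033942), Grin2b (ENSRNOG00000008766) and Camk2a (ENSRNOG00000018712) were described in rat cerebral cortex and hippocampus after repeated hypobaric hypoxia, in which a chamber lowers the air pressure, and with it the oxygen, to that of a high altitude. They are 4 of the 30560 gene IDs measured. They were taken by a list of Ensembl IDs of NMDA receptor subunits and Camk2a, with no cutoff on their values. That list was chosen with earlier results of these data known. The measured table holds IDs only, and the symbol of each ID comes from that list. Male wild-type SD rats were 4 weeks old at the start and had 2 weeks of acclimation, reaching about 200 g. Of 12 rats, 4 controls stayed in normal oxygen and 8 were exposed, of which 1 was lost. An exposure went up to a simulated 28000 ft and stayed there for 5 min, and rats went through 6 of them at intervals of 3 days. Tissue was collected 24 h or 48 h after the last one, from 4 and 3 rats by the labels, so no library shows the hypoxic phase itself. No group carried a genetic modification. mRNA was sequenced from each tissue, and the cortical area and the hippocampal subfield taken are not given. In each tissue 4 control libraries, 3 from 24 h and 3 from 48 h were used, 20 in all. A further library with conflicting tissue labels was left out.

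NMDA receptors are glutamate-gated cation channels of excitatory synapses. Grin1 encodes the GluN1 subunit that every such receptor contains, and Grin2a and Grin2b encode the GluN2A and GluN2B subunits that are combined with it and set the channel's kinetics. Calcium entering through the receptor activates calcium/calmodulin-dependent kinase II, whose alpha subunit is encoded by Camk2a. That kinase is abundant at synapses of forebrain excitatory neurons, binds GluN2B, and is needed for long-term potentiation in hippocampal pyramidal cells.

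Promoter sequences are shown for Grin1 and Camk2a, because these are the 2 of 4 members matched in the RefSeq promoter table (assembly GRCr8). Each is the 250 bases before the transcript start that the table uses, written 5′ to 3′ on the gene's strand. For Grin1 that start is the first base of the gene's annotated span, and for Camk2a it lies 401 bases inside the span, so its window is within the annotated gene. The Grin1 promoter lies at chr3:28528755-28529004 on the minus strand and the Camk2a promoter at chr18:56648930-56649179 on the plus strand. Capitals mark matches to the core of a hypoxia response element (ACGTG or GCGTG) or to the half-site of a cAMP response element (TGACG), on either strand.
Grin1: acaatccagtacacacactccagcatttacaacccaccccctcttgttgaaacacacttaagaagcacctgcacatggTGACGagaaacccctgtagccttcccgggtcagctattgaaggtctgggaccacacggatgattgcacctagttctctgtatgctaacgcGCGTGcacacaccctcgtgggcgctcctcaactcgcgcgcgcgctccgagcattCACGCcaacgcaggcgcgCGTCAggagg
Camk2a: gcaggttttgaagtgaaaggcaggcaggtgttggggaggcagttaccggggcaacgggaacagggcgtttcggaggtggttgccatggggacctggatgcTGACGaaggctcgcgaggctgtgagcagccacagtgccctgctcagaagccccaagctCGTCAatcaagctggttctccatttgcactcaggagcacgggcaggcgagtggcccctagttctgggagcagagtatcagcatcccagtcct
The hypoxia response element core was found at 2 places in the Grin1 window, the first base of each at -82 and -28 from the table's start, and at 0 in the Camk2a window. It is held by 36.7% of 33469 RefSeq promoters of the same length. The cAMP response half-site was found at 2 places in both promoters, at -172 and -10 for Grin1 and at -150 and -92 for Camk2a from the same starts, against 18.2% of all promoters with at least 1. GC box cores (GGGCGG), held by 30.5% of promoters, were at 0 in both. ACGTG and TGACG can share bases, and no match here did. GC content was 57.6% for Grin1 and 60.4% for Camk2a. These matches describe letters in a window and were not measured as binding.

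Values below are normalized counts, that is, reads per gene divided by 1 size factor per library. They compare libraries for 1 gene and not genes with each other, since transcript length is not taken into account. The depth was 4654096 reads in genes for hippocampus control 1 and 11214566 to 19304803 for the others. The lowest number of reads behind any member value was 39, for Grin2b in hippocampus 24 h replicate 4.

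Several libraries stood apart. Each library was placed on a scale from the typical cortex (0) to the typical hippocampus (1), using genes at least 4-fold apart between the tissues and leaving out the members and the library itself. Cortex control 3 lay at 0.51, cortex 24 h replicate 3 at 0.32, hippocampus control 2 at 0.42 and hippocampus 24 h replicate 2 at 0.56. All remaining libraries were near their own end on the scale over all of these genes, from -0.09 to 0.09 in cortex and from 0.91 to 1.08 in hippocampus. Those 4 libraries and the shallow hippocampus control 1 are called the libraries that stand apart, and results are given with and without them. The 4 were picked by genes that differ between the tissues, so leaving them out favours wider tissue differences by the rule itself. Tissue results without them are therefore descriptions and not separate support. In cortex control 3 the position was 0.80 on genes higher in cortex and 0.04 on genes higher in hippocampus. On genes higher in hippocampus, several hippocampus libraries near their end on the whole scale were farther from it. These included 24 h replicate 3 (0.67), 48 h replicate 3 (0.73), control 4 (1.26), 48 h replicate 2 (1.56) and 24 h replicate 4 (1.59). Markers of hippocampal, cortical and glial cells could not be read, because the IDs could not be matched to symbols, so the labelled tissues were not checked against them. In bulk tissue, fewer cells of a type and less RNA per cell cannot be told apart.

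Of the 4 members, Camk2a had the widest difference between tissues. In cortex, its normalized count was 17126, 17803, 3142 and 17204 in control replicates 1 to 4, 12091, 10604 and 11912 in 24 h replicates 2 to 4, and 15954, 18023 and 18958 in 48 h replicates 1 to 3. In hippocampus it was 2421, 7757, 1321 and 749.3 in controls, 11441, 3289 and 419.3 at 24 h, and 1051, 281.4 and 3610 at 48 h, with replicates listed as for cortex. Cortex control 3 was the only cortex library below 10604, and the 2 highest hippocampus values, 11441 and 7757, were in libraries that stood apart. The hippocampus libraries spanned 40.6-fold from lowest to highest, and the cortex libraries 6.03-fold. The pooled SD within hippocampus groups was 1.87 on the log2 scale, and 3.78% of 15028 genes had a wider one.

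The obligatory subunit gene Grin1 varied least. Its normalized counts in cortex were 6339, 7232, 4449 and 6501 in controls, 5404, 5125 and 4762 at 24 h, and 6299, 5812 and 6500 at 48 h. In hippocampus they were 7453, 4394, 3226 and 3535 in controls, 5202, 4821 and 2212 at 24 h, and 3292, 2421 and 4965 at 48 h. The lowest cortex value was again in cortex control 3, and the highest hippocampus value was in the shallow hippocampus control 1. The pooled SD within groups was 0.21 in cortex and 0.58 in hippocampus on the log2 scale, against a median over all genes of 0.32 and 0.53.

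Grin2a, for the GluN2A subunit, had normalized counts in cortex of 593.4, 585.4, 67.81 and 370.1 in controls, 330.6, 89.24 and 392.8 at 24 h, and 872.3, 571.1 and 769.6 at 48 h. In hippocampus they were 340.9, 326, 301.7 and 131.7 in controls, 608.9, 361.2 and 69.88 at 24 h, and 89, 112.4 and 173.3 at 48 h. Both cortex values under 100 were in libraries that stood apart, and Grin2a had a pooled SD of 1.16 in cortex on the log2 scale, which 3.63% of 14783 genes exceeded. Without those libraries, every cortex value was 330.6 or more.

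Grin2b, for the GluN2B subunit to which the kinase binds, had normalized counts in cortex of 403.8, 375.8, 120.7 and 283.3 in controls, 267.7, 143.1 and 233.3 at 24 h, and 410.9, 422.1 and 411.6 at 48 h. In hippocampus they were 440.2, 231.8, 106.4 and 69.94 in controls, 317.9, 285.9 and 38.93 at 24 h, and 49.44, 47.72 and 212.4 at 48 h. The 3 cortex libraries at 48 h lay within 1.03-fold of each other, and the 10 hippocampus libraries spanned 11.3-fold.

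**Figure D1:**
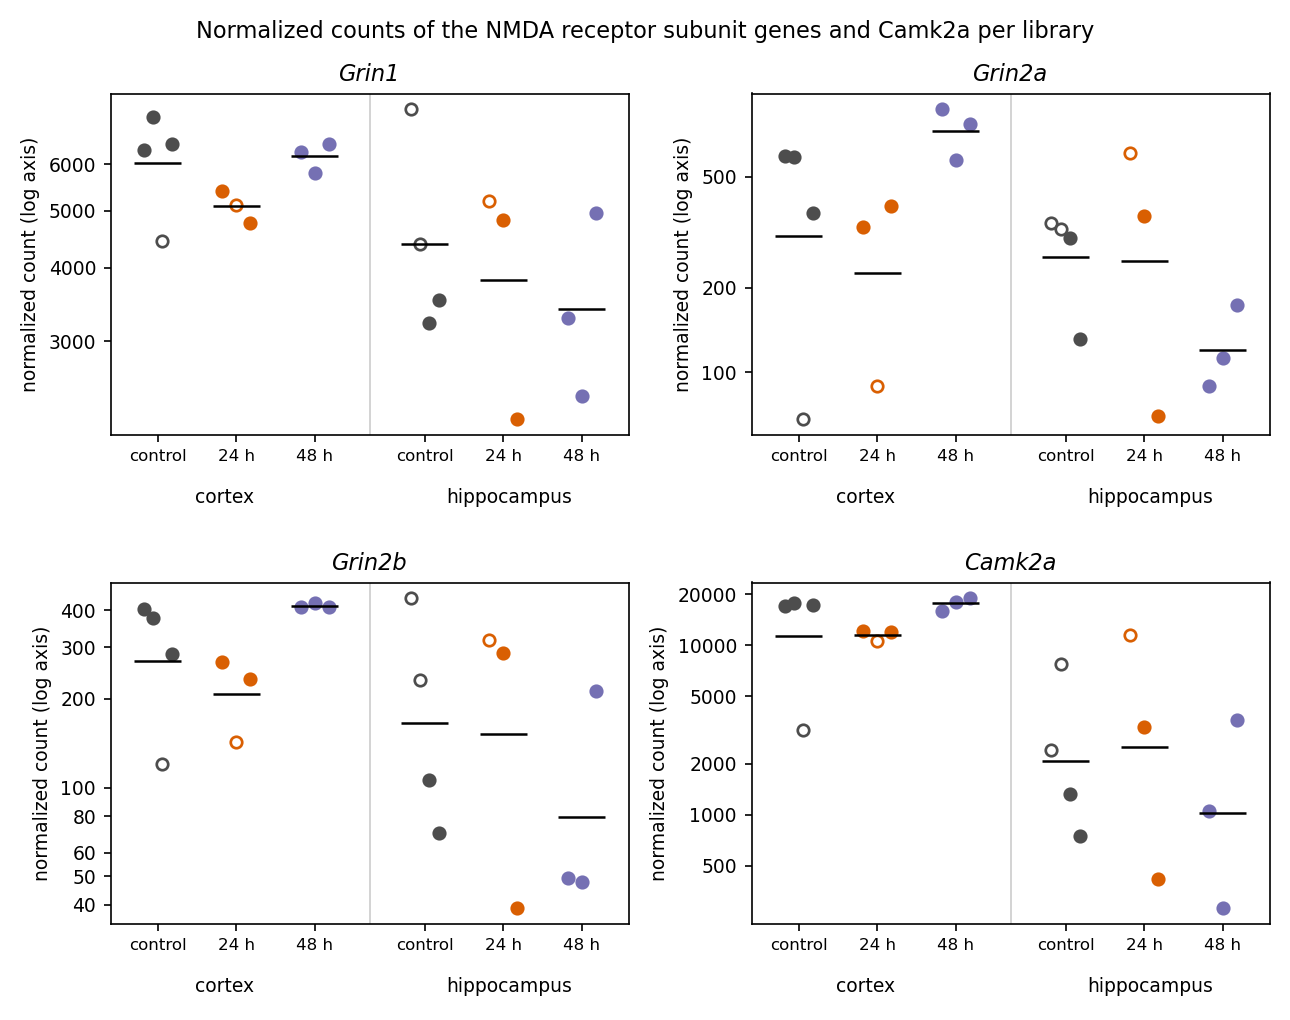
Normalized count of each member (log axis) in every library, by tissue and exposure group; each point is a library, bars are geometric means, and open points are the 5 libraries that stand apart. Camk2a lies between 10604 and 18958 in 9 of the 10 cortex libraries, and the open points supply its lowest cortex value (3142) and its 2 highest hippocampus values.

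By group means, all 4 members were highest in cortex at 48 h and lowest in hippocampus at 48 h. For Camk2a the order was cortex 48 h (17645 ± 1537, SD, n = 3), cortex control (13819 ± 7124, n = 4), cortex 24 h (11535 ± 811.8, n = 3), hippocampus 24 h (5050 ± 5718, n = 3), hippocampus control (3062 ± 3206, n = 4) and hippocampus 48 h (1648 ± 1743, n = 3). For Grin1 it was cortex 48 h (6203 ± 353.4), cortex control (6130 ± 1186), cortex 24 h (5097 ± 321.8), hippocampus control (4652 ± 1931), hippocampus 24 h (4079 ± 1628) and hippocampus 48 h (3559 ± 1293). Grin2b kept the same order as Camk2a, from 414.8 ± 6.27 in cortex at 48 h to 103.2 ± 94.6 in hippocampus at 48 h. In Grin2a the means ran from 737.6 ± 153.1 to 124.9 ± 43.5, and cortex 24 h (270.9 ± 160.3) stood next to last. Neighbouring groups in these orders overlapped in 19 of 20 pairs, so the steps of the order were within the spread between libraries. The exception was Grin2b in cortex, where the lowest value at 48 h was 410.9 and the highest control value 403.8.

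Whether repeated exposure altered the members in a tissue was tested with limma on log2(normalized count + 1) over all genes of that tissue, with Benjamini-Hochberg adjustment and a threshold of 0.05. In all 6 exposure comparisons 0 of 4 members passed, and limma called 0% of the 14783 genes in cortex and 0% of the 15028 in hippocampus. edgeR and DESeq2 on whole reads also called 0 members, with 0 genes called by edgeR and 1 to 145 by DESeq2 per comparison. At an unadjusted p under 0.05, 1 member passed in 1 comparison (Grin2b, cortex 48 h against 24 h), and between 25 and 1675 genes passed per comparison, 1675 of 14783 in the one that held Grin2b.

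In cortex the members came nearest to a difference between the exposure times. All 4 had every 48 h value above every 24 h value, as did 12.5% of the genes tested. Grin2b was 1.00 higher on the log2 scale at 48 h (SE 0.41, 95% interval 0.08 to 1.91, limma adjusted p 0.409), and Grin2a was 1.68 higher (SE 0.80, interval -0.11 to 3.46, adjusted p 0.463). Camk2a differed by 0.61 (interval -0.66 to 1.89) and Grin1 by 0.28 (interval -0.13 to 0.69), with adjusted p 0.728 and 0.593. The median over the 4 members was 0.80. Over all genes tested, where rises and falls cancel, it was 0.02, and the median absolute change was 0.24. Without the libraries that stand apart the differences were 1.01 for Grin2a, 0.73 for Grin2b, 0.55 for Camk2a and 0.29 for Grin1, with 0 called. With limma's estimated library weights, Grin2b passed (adjusted p 0.0278), in a fit that called 1335 genes, and its adjusted p ranged from 0.0278 to 1 over 23 alternatives.

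Against control cortex, the 48 h group had 1 of 4 members above every control library, Grin2b, as did 3.61% of genes. The log2 differences were 1.24 for Grin2a (interval -0.43 to 2.91), 0.63 for Grin2b (-0.23 to 1.48), 0.64 for Camk2a (-0.56 to 1.83) and 0.04 for Grin1 (-0.35 to 0.42), each with a limma adjusted p of 0.885 or more. Cortex control 3 held the lowest control value of all 4 genes, and without the libraries that stand apart these differences were 0.52, 0.24, 0.02 and -0.11. The 24 h group differed from control by -0.43 in Grin2a, -0.37 in Grin2b, -0.25 in Grin1 and 0.02 in Camk2a. Camk2a changed sign without the libraries that stand apart (-0.53).

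In hippocampus at 48 h the members' estimates against control were below 0, with wide intervals. They were -1.10 for Grin2a (interval -2.57 to 0.38), -1.05 for Grin2b (-3.02 to 0.92), -1.02 for Camk2a (-3.70 to 1.66) and -0.37 for Grin1 (-1.26 to 0.53), all with a limma adjusted p of 0.928. The median over the 4 members was -1.04. Over all genes, where rises and falls cancel, it was 0.02, and the median absolute change was 0.29. Without the libraries that stand apart, which left 2 control libraries, Camk2a was at 0.04, Grin1 at 0.01, Grin2b at -0.11 and Grin2a at -0.73. At 24 h the estimates were between -0.20 and 0.27 with the same kind of interval (Camk2a -2.41 to 2.95), and 48 h against 24 h gave -1.29 for Camk2a, -1.05 for Grin2a, -0.93 for Grin2b and -0.16 for Grin1. Without hippocampus 24 h replicate 2, the 24 h library that stands apart, the latter were -0.20, -0.40, -0.41 and 0.06.

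**Figure D2:**
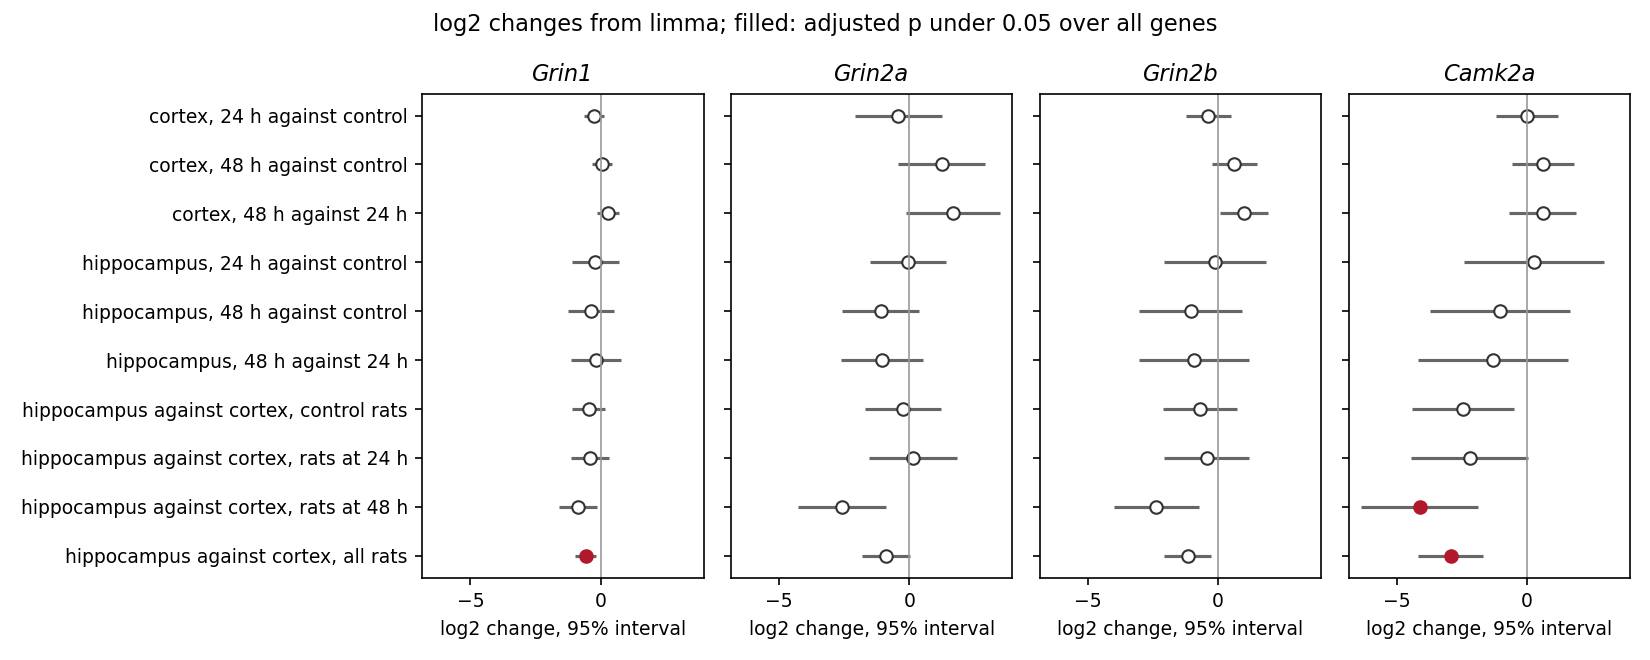
Log2 change of each member in 10 comparisons, from limma, with 95% intervals; filled points have an adjusted p under 0.05 over all genes. The filled points are all differences between the tissues, with Camk2a at -4.10 in rats at 48 h and at -2.92 over all rats, and Grin1 at -0.58 over all rats.

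The tissues were compared in 1 limma fit of all 20 libraries and 15017 genes. Both tissues came from the same set of rats, and this fit treats their libraries as independent. In rats at 48 h, Camk2a was 17.2-fold lower in hippocampus than in cortex (log2 difference -4.10, SE 1.07, 95% interval -6.35 to -1.86, adjusted p 0.0334, 3 libraries of each). This was 1 of 4 members called, in a comparison that called 5.29% of genes and 2.87% as lower in hippocampus. Grin2a (-2.59, adjusted p 0.0684), Grin2b (-2.37, adjusted p 0.0822) and Grin1 (-0.86, adjusted p 0.149) did not pass. All 4 members had every hippocampus value at 48 h below every cortex value, as did 21.5% of genes. The median over the 4 members was -2.48. Over all genes, where rises and falls cancel, it was 0.02, and the median absolute change was 0.40. No 48 h library stood apart by the rule, although hippocampus 48 h replicate 2 lay at 1.56 on genes higher in hippocampus. Leaving out the libraries that did, all from other groups, cannot change these differences and alters only the estimated spread and the genes tested. It called all 4 members (limma adjusted p 0.00282 for Camk2a and 0.0336 for Grin1), in a fit that called 4148 of 14868 genes. That exclusion is built on tissue differences, so these calls are not separate support. The Camk2a call was lost in edgeR (adjusted p 0.0719), without cortex 48 h replicate 1, 2 or 3 (adjusted p 0.077, 0.107 and 0.117) and without hippocampus 48 h replicate 1 or 2 (0.0851 and 0.18), where its difference stayed between -4.17 and -3.17.

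In control rats 0 of 4 members were called by limma, edgeR or DESeq2, against 2.9% of genes by limma. Camk2a was the 1 of 4 members with an unadjusted p under 0.05 there, as had 2846 of 15017 genes, and it was 5.45-fold lower in hippocampus (log2 difference -2.45, interval -4.39 to -0.50, adjusted p 0.162). Grin2b differed by -0.69, Grin1 by -0.46 and Grin2a by -0.25, with intervals that include 0. Without cortex control 3 and hippocampus controls 1 and 2, and the 24 h libraries that stand apart, Camk2a was at -4.12 (adjusted p 0.00869) and Grin1 at -0.98 (adjusted p 0.0432), and 2 members were called, in a fit that called 2542 of 14868 genes. In rats at 24 h 0 of 4 members were called, by the same 3 tools and also at an unadjusted p under 0.05, against 1.8% of genes by limma. Camk2a was at -2.20 (interval -4.44 to 0.05, adjusted p 0.336), Grin2b at -0.44, Grin1 at -0.42 and Grin2a at 0.14. Without the libraries that stand apart Camk2a was at -3.35 (adjusted p 0.0349, with 2327 of 14868 genes called) and Grin2a changed sign to -1.17. Without hippocampus 24 h replicate 4 alone, Camk2a was at -0.91 (adjusted p 0.822).

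Averaged over control, 24 h and 48 h rats, in a comparison added after the data were seen, Camk2a was 7.55-fold lower in hippocampus (log2 difference -2.92, SE 0.59, interval -4.16 to -1.67, limma adjusted p 0.00188). It was lower in each of the 3 exposure groups and kept its call in 31 of 31 alternatives, with adjusted p from 3.06e-06 to 0.0081. Grin1 was 1.49-fold lower (-0.58, interval -0.98 to -0.18, adjusted p 0.0354), which made 2 of 4 members called, against 21.8% of genes called and 11.1% called lower in hippocampus. The Grin1 call was kept in 15 of 31 alternatives. It was lost in 14 of the 20 fits that left out 1 library, with adjusted p up to 0.0875 (without hippocampus 48 h replicate 2) and differences from -0.59 to -0.45 in those fits. Grin2b (-1.16, adjusted p 0.0616) and Grin2a (-0.90, adjusted p 0.165) did not pass, and without the libraries that stand apart all 4 did, at -3.86, -0.83, -1.87 and -1.70 for Camk2a, Grin1, Grin2b and Grin2a, in a fit that called 6812 of 14868 genes.

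Whether the response to exposure differed between the tissues was tested as an interaction. limma, edgeR and DESeq2 called 0 of 4 members and 0% of genes at either time. The smallest unadjusted p of a member was 0.0418, for Grin2a at 48 h, whose response in hippocampus differed from that in cortex by -2.34 on the log2 scale (interval -4.58 to -0.10, adjusted p 0.998), and 198 of 15017 genes had an unadjusted p under 0.05 there. That estimate was -1.25 without the libraries that stand apart, and the other members' estimates at 48 h were -1.68 for Grin2b, -1.66 for Camk2a and -0.41 for Grin1.

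**Figure D3:**
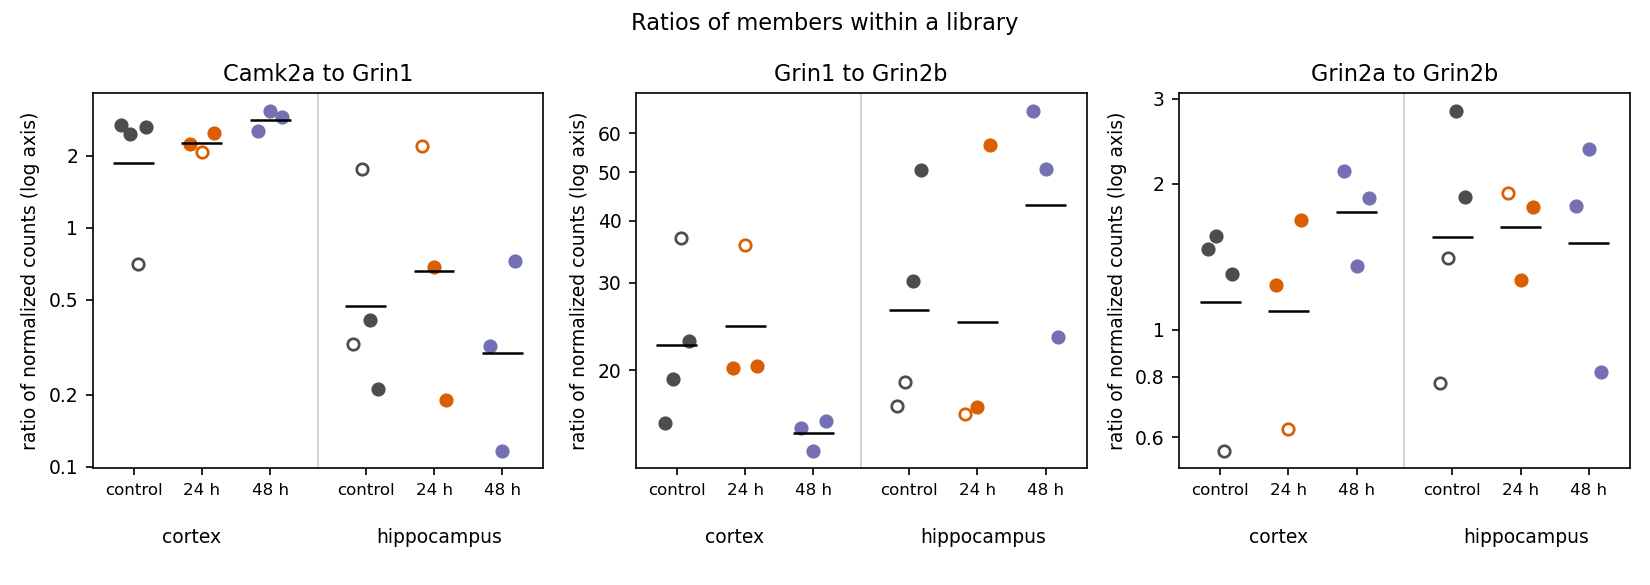
Ratio of the normalized counts of 2 members in the same library (log axis), by tissue and exposure group; each point is a library, bars are geometric means, and open points are the libraries that stand apart. The Camk2a to Grin1 ratio is 2.07 or more in 9 of 10 cortex libraries and 0.727 or less in 8 of 10 hippocampus libraries.

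Ratios of 2 members within a library do not depend on its size factor. They were compared between libraries with exact two-sided permutation tests, as a family of 30 with Benjamini-Hochberg adjustment. The Camk2a to Grin1 ratio, kinase to obligatory subunit, averaged 2.39 ± 0.66 (SD, n = 10) in cortex and 0.694 ± 0.714 (n = 10) in hippocampus. The exceptions were libraries that stood apart, with 0.706 in cortex control 3, 1.76 in hippocampus control 2 and 2.2 in hippocampus 24 h replicate 2. The mean log2 ratio differed by -2.34 in hippocampus against cortex, a 5.06-fold lower ratio (exact permutation within exposure groups, 28000 arrangements, p = 0.000429, adjusted p = 0.0129). The difference had the same sign in all 3 exposure groups, but did not pass in any of them alone. It was -1.99 in controls (exact permutation p = 0.0571, adjusted p = 0.375) and -1.78 at 24 h (exact permutation p = 0.2, adjusted p = 0.5275). At 48 h it was -3.24 (exact permutation p = 0.1, adjusted p = 0.375), where 3 libraries against 3 cannot go below an exact p of 0.1. At 24 h it was -0.89 without hippocampus 24 h replicate 4 and -2.72 without the libraries that stand apart. Over all rats it was -3.03 without the libraries that stand apart (adjusted p 0.025), and its call was lost without cortex 24 h replicate 4 (-2.31, adjusted p 0.0536). Both tissues came from the same set of rats, and the test treats their libraries as independent.

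The ratios among the receptor subunits differed less. Grin1 to Grin2b averaged 21.6 ± 8.26 in cortex and 34.7 ± 19.4 in hippocampus, a log2 difference of 0.60 (exact permutation p = 0.0968, adjusted p = 0.375), or 1.06 without the libraries that stand apart (adjusted p = 0.0625). In rats at 48 h the hippocampus ratios were 66.6, 50.8 and 23.4 and the cortex ratios 15.3, 13.8 and 15.8, which did not overlap (log2 difference 1.52, exact permutation p = 0.1, the smallest possible, adjusted p = 0.375). Cortex at 48 h was also below cortex at 24 h (20.2, 35.8 and 20.4) (log2 difference -0.72), with the same exact p, and the difference was -0.44 without cortex 24 h replicate 3. Grin2a to Grin2b, the ratio of the alternative subunits, was 1.38 ± 0.49 in cortex and 1.68 ± 0.64 in hippocampus (log2 difference 0.27, exact permutation p = 0.349, adjusted p = 0.696), or 0.18 without the libraries that stand apart. The other 22 ratio comparisons had adjusted p from 0.375 to 1.

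**Figure D4:**
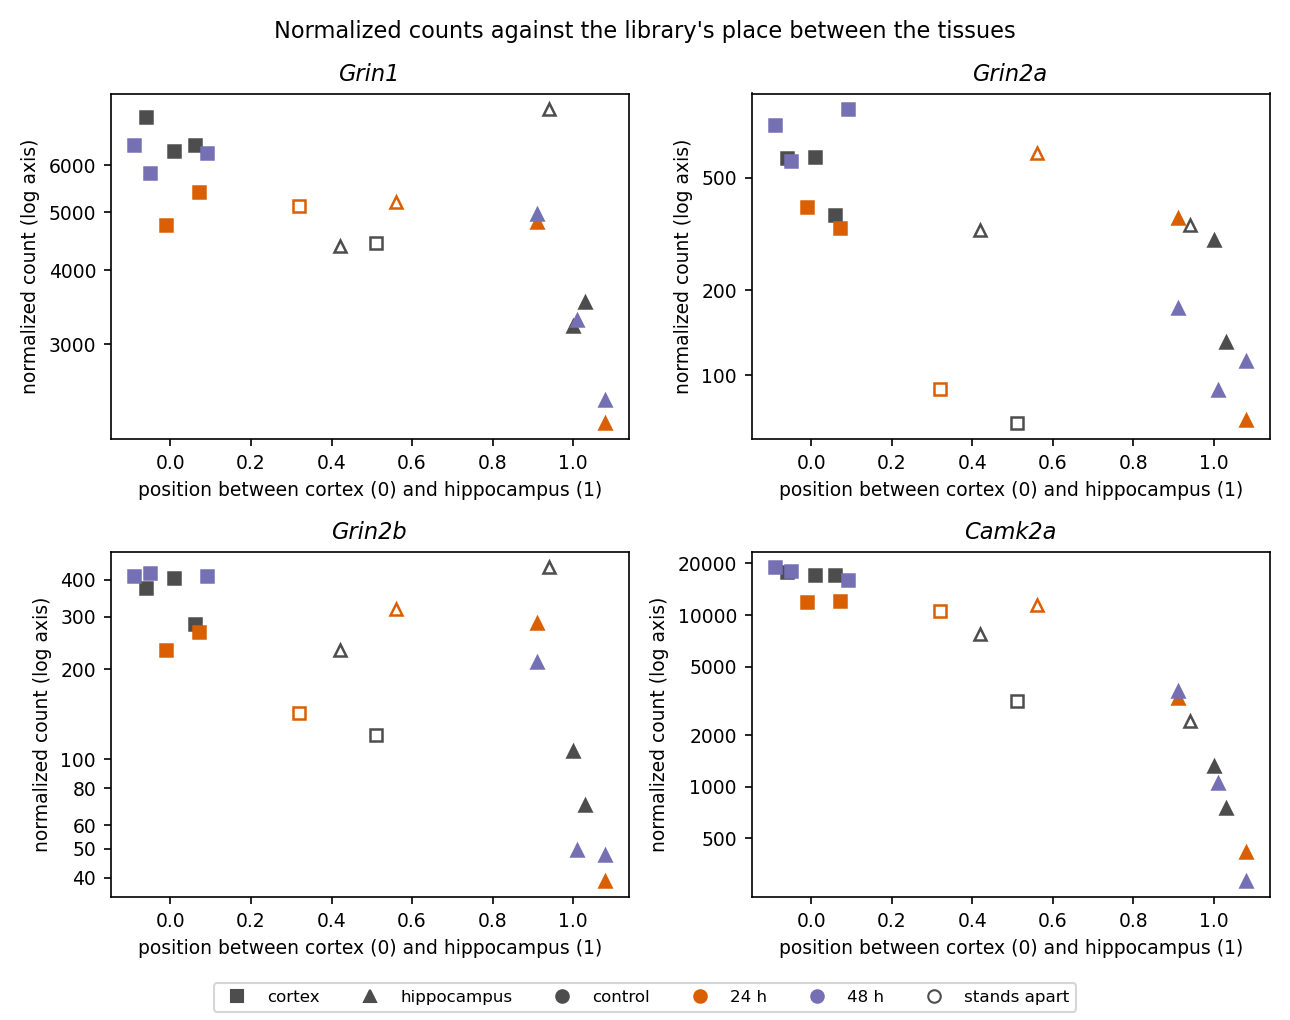
Normalized count of each member (log axis) against the library's position between cortex (0) and hippocampus (1), set without the members; squares are cortex, triangles hippocampus, and open symbols stand apart. Camk2a is 10604 or more at every cortex library but the one at 0.51, is 7757 and 11441 at the hippocampus libraries at 0.42 and 0.56, and 281.4 at a hippocampus library at 1.08.

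The members' values were correlated across libraries. Over the 20 libraries, the correlation (Pearson's r) of log2(normalized count + 1) between Grin1 and Grin2b was 0.934, and among 15016 genes Grin2b was the third most like Grin1 and Grin1 was ranked 2 for Grin2b. Grin2b had r = 0.867 with Camk2a and 0.861 with Grin2a, and within the 10 cortex libraries its r with Grin2a was 0.972. The remaining pairs were lower, at 0.859 for Grin1 and Camk2a, 0.733 for Grin2a and Camk2a, and 0.712 for Grin1 and Grin2a. Grin2a was ranked 711 for Grin1 and 935 for Camk2a. For Camk2a, Grin2b was ranked 267 and Grin1 297, so many genes outside the members were more like it. These values are descriptions without a test, and the libraries share the tissue difference and the libraries that stand apart. The 2 genes most like the mean profile of the 4 members were ENSRNOG00000059008 (r = 0.964, median normalized count 2195 in cortex and 1265 in hippocampus) and ENSRNOG00000029134 (r = 0.943, 5423 and 2785). The 2 hippocampus libraries at 1.08, 24 h replicate 4 and 48 h replicate 2, held the 2 lowest values of Grin1, of Grin2b and of Camk2a among all 20 libraries. The lowest Grin2a value was in cortex control 3 (67.81). The part of a library's position in the members' differences was not tested.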

How the data were processed

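RNA of cortex and hippocampus was made into stranded mRNA libraries, per the labels' protocols. The submitters' processing notes name fastp 0.20.0, HISAT2 2.1.0 and featureCounts 2.0.1. For the genome build, annotation and strand setting, no source used here gives a statement. The deposited table holds a signal per gene and library, made by the authors as read counts divided by a size factor. In all 21 columns 100% of values were whole multiples of 1 read (within 0.001), and these reads entered edgeR and DESeq2. All 21 columns matched a sample. 1 library titled hippocampus and labelled cortex stayed unassigned.

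limma 3.58.1 (R 4.3.3; lmFit, eBayes with trend, two-sided) was run on log2(value + 1), over genes with a mean of at least 10, which kept all 4 members. Adjusted p-values are Benjamini-Hochberg over all genes tested, with a threshold of 0.05. Fold changes are on that scale, which understates changes of low genes. Exposure contrasts came from a fit of the 10 libraries of a tissue, and tissue and interaction contrasts used all 20 libraries. Alternatives were the pseudocount, filter, scaling, trend, weights, libraries in the fit, a replicate block, leaving out each library or those that stand apart (over 0.3 from their tissue's end, or under 0.5 of the median depth), edgeR 4.0.16 and DESeq2 1.42.0. Scripts were tested on simulated data.

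The position of a library was its median place between the tissue medians, over genes at least 4-fold apart with a median of at least 100. The members and lists were chosen with earlier results of these data known. Every member is named, with the 2 genes most like their mean profile by Pearson's r. The reference of 47357 rat genes (GRCr8) gave an Ensembl ID for 0, so pathway and cell type lists fixed by symbol could not be applied. Promoters were matched by symbol for 2 of 4 members. p-values measure the spread between these libraries, and pairing of replicate numbers across groups is not stated in the labels.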

Additional observations from a re-analysis of the deposited data

Results flagged for a closer look

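In groups of 4 libraries, a value was picked out when its gap to the nearest other was large for the group's range (Dixon's test at the 95% level). This was applied to 14 groups of values, those of the 4 members and 3 ratios in the control libraries of each tissue. Groups of 3 were not tested, and chance picks out about 1 in 20 groups. Camk2a in cortex control 3 was picked out, at a normalized count of 3142 against 17126 to 17803 in the other control cortex libraries. Its ratio of Camk2a to Grin1 was picked out too, at 0.706 against 2.46 or more. The same ratio was picked out in hippocampus control 2, at 1.76 against 0.212 to 0.409. Both libraries stood apart on the scale between the tissues, at 0.51 and 0.42.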

How the results depend on the processing

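Counts of members called and the 3 ratios over all rats were recomputed under each alternative. In 357 of 395 cases the direction and the side of the threshold, or a count within 1.5 times, were kept, while 15 gained and 23 lost calls. Most cases were counts of 0 members that stayed at 0. Most changes fell on the tissue counts that held a call, at 48 h (32 alternatives) and over all rats (31 alternatives), which were less stable than the total. Library weights called 1 member for cortex 48 h against 24 h, 3 between tissues in controls, and 4 at 48 h and over all rats. Leaving out the libraries that stand apart, most of them picked by tissue differences, called 2 in controls, 1 at 24 h, and 4 at 48 h and over all rats. At 48 h edgeR called 0, DESeq2 3 and a fit of only the groups compared 3. Over all rats edgeR called 1 and no filter on low values 1. Leaving out 1 library gave 0 to 3 members at 48 h and 1 to 4 over all rats, and a Camk2a to Grin1 log2 ratio from -2.63 to -2.04. The genes called between tissues ranged from 5 to 6169 at 48 h (795 in the reported fit), 2 to 3785 in controls (436), 0 to 3479 at 24 h (270) and 2559 to 7742 over all rats (3269). In fits of both tissues, the replicate block took same-numbered libraries of an exposure group as pairs. In fits of 1 tissue it grouped the same number across exposure groups. The block called 1 member between tissues at 48 h and 2 over all rats, as reported, and changed no other count. Deviations of same-numbered libraries of the tissues had a median r of 0.016 over 10 pairs (3 over 0.1). Other-numbered ones had 0.016 over 24 pairs (5 over 0.1). With deviations taken from means of 3 or 4 libraries, this cannot decide whether a number marks 1 rat. Outside the replicate block, the numbers were not taken as pairs.

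Signs changed for estimates that were not called in either fit, and the cause was not tested. For cortex 24 h against control, Camk2a was -0.43 with weights, -0.23 in edgeR, -0.24 in DESeq2 and -0.53 without the libraries that stand apart. For cortex 48 h against control, Grin1 was -0.051 with quantile scaling, -0.14 with weights and -0.11 without those libraries. For hippocampus 24 h against control, weights gave 0.40 for Grin1, 0.79 for Grin2a and 1.27 for Grin2b. There the replicate block gave 0.026 for Grin2a and 0.10 for Grin2b, edgeR 0.37 and 0.10, DESeq2 0.34 and 0.042, and Grin2b was 0.29 without the libraries that stand apart. Without those libraries, hippocampus 48 h against control was 0.013 for Grin1 and 0.040 for Camk2a, 48 h against 24 h was 0.061 for Grin1, the tissues at 24 h differed by -1.17 in Grin2a, and the 48 h interaction was 0.12 for Grin1 and 0.022 for Camk2a. Grin2b between tissues at 24 h was 9.96e-05 in edgeR.

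Leaving out 1 library moved cortex 24 h against control from -1.15 to 0.23 in Grin2a and from -0.59 to 0.24 in Camk2a, and 48 h against control from -0.11 to 0.13 in Grin1. Hippocampus 24 h against control moved from -0.43 to 0.19 in Grin1, -0.69 to 0.86 in Grin2a, -0.64 to 0.85 in Grin2b and -0.82 to 1.56 in Camk2a, and 48 h against 24 h from -0.56 to 0.084 in Grin1. Between tissues, Grin2a moved from -0.97 to 0.075 in controls and -0.53 to 1.05 at 24 h, and Grin2b from -0.96 to 0.54 at 24 h. The 24 h interaction moved from -0.18 to 0.43 in Grin1, -0.28 to 1.29 in Grin2a, -0.27 to 1.23 in Grin2b and -0.84 to 1.54 in Camk2a.

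With 3 or 4 libraries a group, the 95% interval of a typical gene reached 0.54 to each side for cortex against control and 0.88 in hippocampus on the log2 scale. It was wider for Grin2a, Grin2b and Camk2a in both tissues. These intervals are not adjusted for the number of genes tested, so larger differences could also go uncalled. Grin2a in cortex, 48 h against 24 h, was 1.68 higher with a limma adjusted p of 0.463. Hippocampus control 1, at 4654096 reads, had the least depth behind its values.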
